A study of Homo sapiens with 6 samples.

Results

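The miR-28, miR-151 and miR-708 family comprised 7 rows of mature miRNA in the deposited tables, chosen by name as hsa-miR-28-5p, hsa-miR-28-3p, hsa-miR-151a-5p, hsa-miR-151a-3p, hsa-miR-151b, hsa-miR-708-5p and hsa-miR-708-3p, and written below without the species prefix. They were 7 of the 2576 rows in each table. All 7 had at least 1 count in some library, and 5 of them reached 5 CPM (counts per 1000000 counts of the library) in at least 3 of the 6 libraries, as 430 rows did in all. The libraries came from MIO-M1, an established line of human Müller glia labelled as wild type and grown in DMEM with FCS. Whole cell RNA was taken at passages 22, 24 and 26, and the extracellular vesicles (EV) were collected at passages 23, 25 and 27, and these are called replicates 1, 2 and 3 of each group. The EV were pelleted from medium that the labels describe as serum-free and the methods as vesicle-depleted, and were treated with RNase before extraction. All samples came from a single cell line, and RNA was extracted with one kit from cells and with another from EV, so the source and the kit cannot be told apart. Whole cell libraries held between 396025 and 3990900 counts, and EV libraries between 1225541 and 3134561.

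A miRNA precursor is a short hairpin that is cut into a 5p and a 3p strand, of which one is usually loaded into Argonaute and the other is mostly lost. The loaded strand finds its target mRNAs chiefly through its seed, the bases 2 to 8 from the 5′ end. The hairpins of miR-28, miR-151a and miR-708 are related in sequence and are held to derive from LINE-2 transposable elements, and miR-28-5p and miR-708-5p are known to share a seed. In the GENCODE 29 annotation each of the 3 precursors lay in an intron of a protein-coding gene on the same strand, MIR28 in LPP, MIR151A in PTK2, which encodes focal adhesion kinase, and MIR708 in TENM4. MIR151B lay on the opposite strand within an intron of EVL. The annotated miR-151b sequence is contained in miR-151a-5p, so a read that ends early fits both rows, and how such reads were assigned is not given in the sources used here. In the retina miR-708 is known as a product of the endoplasmic reticulum stress response that targets rhodopsin.

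The mature sequences of the arms of miR-28 and miR-708 are shown to make the kinship and the seeds visible, with the seed in capitals. RefSeq gave 3 of the 7 arms (build GRCh38.p14), at chr3:188688834-188688855 on the plus strand for miR-28-3p, chr11:79402077-79402099 on the minus strand for miR-708-5p and chr11:79402032-79402053 on the minus strand for miR-708-3p. miR-28-5p, miR-151a-5p, miR-151a-3p and miR-151b are named only.
miR-28-3p: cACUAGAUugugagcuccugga
miR-708-3p: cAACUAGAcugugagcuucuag
miR-708-5p: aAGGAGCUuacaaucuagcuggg

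With miR-28-3p set 1 base to the right of its start along miR-708-3p, the 3p arms matched at 17 of 21 aligned bases (81.0%), and their longest shared run had 8 bases. Their seeds were different, ACUAGAU in miR-28-3p and AACUAGA in miR-708-3p. Neither seed occurred in another of the 2370 mature sequences of the table. The seed of miR-708-5p, AGGAGCU, occurred among these sequences only in miR-3139, which had a count of 0 in all 6 libraries. miR-28-5p, known to share this seed, had no sequence to search and was counted 7 to 136 times a library. Short motifs have been tied to the loading of miRNA into EV, GGAG and CCCU with hnRNPA2B1 and GGCU with SYNCRIP. Of the 3 printed arms GGAG was found in miR-708-5p, from base 3. The motif was in 10.5% of the 390 tested miRNAs that had a sequence. The family arms without a sequence, miR-151a-3p among them, were not searched. The seed AGGAGCU, which miR-28-5p is known to share, itself holds GGAG. CCCU and GGCU were in none of the 3 printed arms, and in 10.8% and 14.4% of the same 390 sequences.

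miR-151a-3p was the most abundant arm of the family in every library, and it was the arm with a higher level in EV. It had 2621, 3956 and 4247 CPM in whole cell replicates 1 to 3, and EV replicates 1 to 3 had 8058, 11210 and 9118 CPM. The lowest EV library lay above the highest whole cell library. The mean was 3608 ± 867 CPM (SD, n = 3) in whole cells and 9462 ± 1604 CPM (SD, n = 3) in EV, a ratio of means of 2.62. Among all rows of a library ordered by count, miR-151a-3p ranked 49, 43 and 42 in whole cells and 20, 17 and 21 in EV.

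Each arm past the filter was compared between EV and whole cells in a fit over all 430 filtered miRNAs. The log2 fold change of miR-151a-3p was 1.34 (standard error 0.36, 95% interval 0.50 to 2.18, adjusted p = 0.0287, Benjamini-Hochberg, by the quasi-likelihood test of edgeR). It was the only one of the 5 tested arms with an adjusted p below 0.05, a rule that called 28.6% of all 430 miRNAs, 14.7% of the 430 as higher and 14.0% as lower in EV. None of the 5 arms passed the stricter rule of the study's results, an adjusted p below 0.01 with a log2 fold change of at least 2.5 in size, which called 5.81% of all miRNAs. At an unadjusted p below 0.05, which 35.8% of all miRNAs met, edgeR listed miR-151a-3p and miR-151a-5p. With DESeq2, whose adjusted p was below 0.05 for 35.5% of the miRNAs (15.2% higher and 20.2% lower in EV), miR-151a-3p was called higher and miR-151a-5p lower. These were also the 2 tested arms whose groups did not overlap, as 48.4% of all miRNAs did not. miR-151a-5p reached 5 CPM in whole cells alone, so it could only be lower in EV. The call for miR-151a-3p was lost with adjusted p of 0.0576 to 0.0922 (edgeR) when any library but whole cell replicate 1 was left out, and with an adjusted p of 0.0630 (edgeR) without the filter on low counts. Its log2 fold change stayed between 0.94 and 1.44 in all of these fits.

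In a list of 11 miRNAs known from blood and serum, chosen with earlier results of these data known, 6 were tested. Of these, 5 were called higher in EV, as were 14.7% of all miRNAs. miR-451a, miR-142-3p and miR-126-5p had at most 0.799 CPM in any whole cell library. They passed the filter through EV alone and could only be called higher, so the count of calls is no test of the list. The summed level of the list was 265 to 1204 CPM in whole cells and 2314 to 3213 CPM in EV. Most of the sum in whole cells was miR-486-5p, at 164, 875 and 1161 CPM, which was the tested member not called (log2 fold change 0.78, adjusted p = 0.487 by edgeR). No whole cell library had a count of miR-451a, the red cell miRNA, or of miR-142-5p, miR-144-3p and miR-144-5p, which are on the list. The part of serum or blood RNA in the level of miR-151a-3p was not tested. In a list of 5 miRNAs of Müller glia and neural cells the sum was 139473 to 140849 CPM for whole cells against at most 109575 CPM for EV. By edgeR miR-204-5p was called lower in EV and none was called higher. The largest part of that sum was miR-125b-5p, with 100534 to 115967 CPM for whole cells and 21962 to 70112 CPM for EV. It was not called by edgeR (log2 fold change -1.19, adjusted p = 0.124). DESeq2 called it lower in EV (-1.39, adjusted p = 0.0149), as it did 20.2% of the miRNAs. Its groups did not overlap, as for 27.4% of all tested miRNAs in this direction. The other 3 members, miR-9-5p, miR-99a-5p and miR-100-5p, had log2 fold changes of 1.06, 1.28 and 1.03 and were not called by edgeR. The median of the list was 1.03, against -0.23 over all miRNAs.

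**Figure D1:**
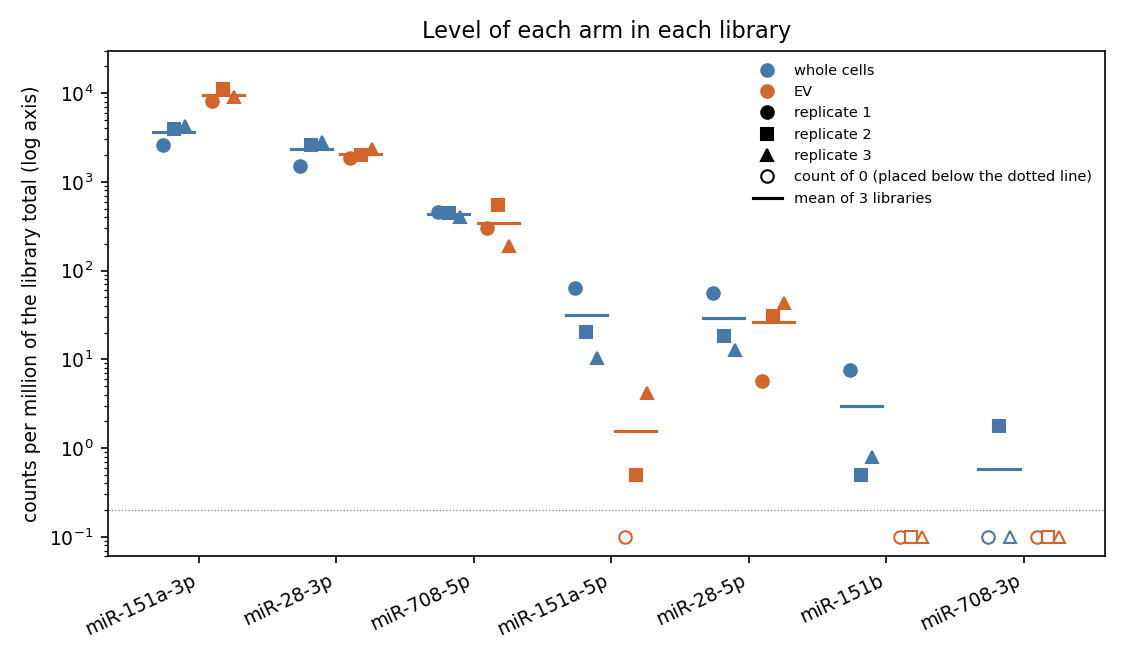
CPM (log axis) for each of the 7 arms, with 1 point per library, whole cells in blue and EV in orange, a bar at the mean of 3 libraries, and open points below the dotted line for a count of 0. The miR-151a-3p points of EV, from 8058 to 11210 CPM, sit above those of whole cells, and the miR-151a-5p points of EV sit below.

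miR-28-3p, the more abundant arm of miR-28, did not differ detectably between the sources. It had 1505, 2605 and 2846 CPM in whole cells and 1836, 2026 and 2357 CPM in EV, so the EV libraries lay inside the range of the whole cell libraries. Its log2 fold change was -0.20 (standard error 0.41, 95% interval -1.15 to 0.75, edgeR, adjusted p = 0.777). The median over all 430 tested miRNAs was -0.23. The interval held no change as large as the 1.34 estimated for miR-151a-3p, in either direction.

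miR-708-5p, the more abundant arm of miR-708, varied less among the whole cell libraries than among the EV libraries. The study also describes its EV samples in general as more variable than its whole cell samples. It had 462, 442 and 397 CPM in whole cells and 301, 545 and 190 CPM in EV. On these CPM the highest and the lowest library of all were both EV libraries, replicates 2 and 3. They differed 2.88-fold, against 1.16-fold among whole cells. After scaling by TMM factors whole cell replicate 2 was the highest, with a log2(CPM + 4) of 8.90 against 8.85 in EV replicate 2. The log2 fold change was -0.38 (standard error 0.45, 95% interval -1.43 to 0.66, adjusted p = 0.596 by edgeR).

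The minor arms were rare. miR-28-5p, which is known to act on other targets than miR-28-3p, was counted 22, 74 and 16 times in whole cells, against 7, 63 and 136 times in EV. As a level this was 55.6, 18.5 and 12.8 CPM in whole cells and 5.71, 30.9 and 43.4 CPM in EV, and the groups overlapped. Its log2 fold change was -0.0038 with a standard error of 1.16 and a 95% interval of -2.72 to 2.71 (edgeR, adjusted p = 1.00), and its sign turned when whole cell replicate 1 (0.50) or EV replicate 1 (0.35) was left out.

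miR-151a-5p, known as a promoter of cell migration in liver cancer, was counted 25, 81 and 13 times in whole cells, against 0, 1 and 13 times in EV. The level was 63.1, 20.3 and 10.4 CPM in whole cells and 0, 0.491 and 4.15 CPM in EV. Every EV library lay below every whole cell library, as for 27.4% of all tested miRNAs. Only the whole cell libraries reached 5 CPM, so the arm passed the filter through whole cells alone. It could then only lie lower in EV, so neither the lack of overlap nor the direction of a call is a test. Over the 3 libraries of a group this was 119 counts in whole cells and 14 in EV, and the mean was 31.3 ± 28 CPM (SD, n = 3) in whole cells and 1.55 ± 2.27 CPM (SD, n = 3) in EV. The log2 fold change was -3.998 (standard error 1.6, 95% interval -7.75 to -0.25, adjusted p = 0.117 by edgeR), which did not pass the threshold. DESeq2 gave -4.38 and an adjusted p of 0.0302, and edgeR called the arm when EV replicate 3, which held 13 of the 14 EV counts, was left out (log2 fold change -6.46, adjusted p = 0.0191).

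miR-151b and miR-708-3p did not reach the filter. miR-151b was counted 3, 2 and 1 times in whole cells and 0 times in every EV library, and miR-708-3p had 7 counts in whole cell replicate 2 and 0 in all the others. A count of 0 allows up to 3 counts, which is 7.58 CPM in whole cell replicate 1, the shallowest library, and 2.40 CPM in whole cell replicate 3. In EV replicates 1, 2 and 3 the same limit is 2.45, 1.47 and 0.957 CPM. No fold change is given for either. Limits and intervals on counts cover counting error only, since no step that collapsed copies of the same starting molecule is named.

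**Figure D2:**
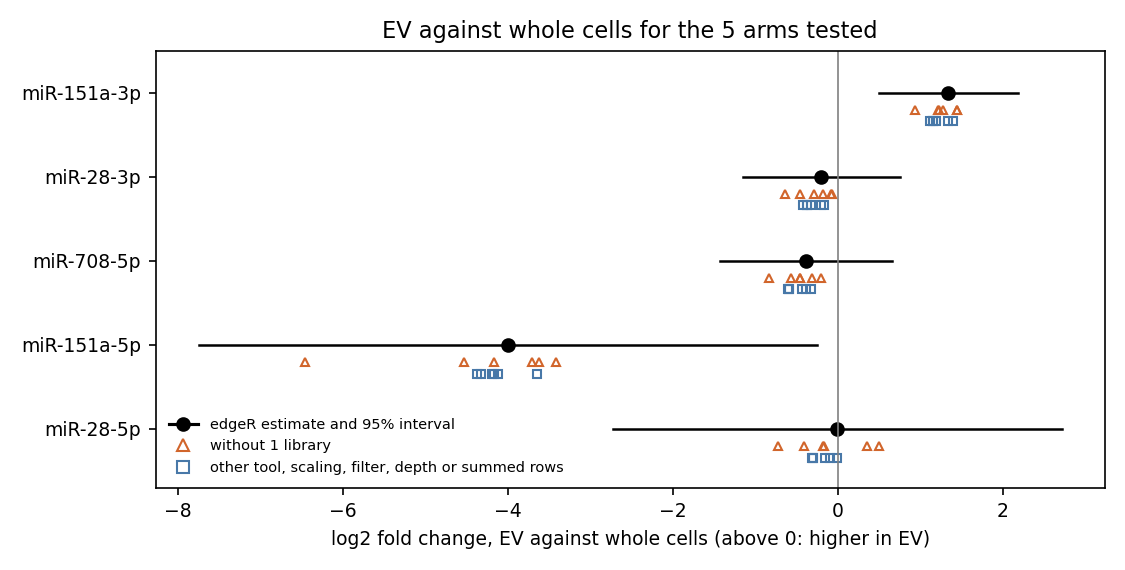
Log2 fold change of EV against whole cells for the 5 tested arms, with the edgeR estimate and its 95% interval in black, fits without 1 library as triangles and other settings as squares. The interval of miR-151a-3p runs from 0.50 to 2.18, those of miR-28-3p, miR-708-5p and miR-28-5p span 0, and that of miR-151a-5p ends at -0.25.

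The order of the abundant arms was the same in all 6 libraries, miR-151a-3p above miR-28-3p above miR-708-5p, on CPM without a correction for length, since a read stands for a whole miRNA. In whole cells miR-28-3p averaged 2319 ± 715 CPM (SD, n = 3) and miR-708-5p averaged 434 ± 33.3 CPM (SD, n = 3). In EV the means were 2073 ± 264 CPM (SD, n = 3) and 345 ± 182 CPM (SD, n = 3). Below them in whole cells, miR-151a-5p and miR-28-5p, at 28.96 ± 23.2 CPM (SD, n = 3), did not differ beyond their spread. In EV miR-28-5p averaged 26.7 ± 19.2 CPM (SD, n = 3), and each EV library had more miR-28-5p than miR-151a-5p.

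The balance between the abundant arms does not depend on how libraries are scaled. There were 1.74, 1.52 and 1.49 counts of miR-151a-3p for each count of miR-28-3p in whole cells, and 4.39, 5.53 and 3.87 in EV. The groups did not overlap, and the ratio was 2.88 times as high in EV (geometric means of 3 libraries). A two-sided exact permutation test gave p = 0.1, the smallest that 3 libraries against 3 allow, and 0.15 after adjustment over the 3 ratios computed. Against miR-708-5p the ratio of miR-151a-3p was 5.67, 8.96 and 10.7 in whole cells and 26.8, 20.6 and 48.1 in EV, again without overlap (two-sided exact permutation test, p = 0.1, adjusted 0.15). For miR-28-3p against miR-708-5p the ratios were 3.26, 5.90 and 7.17 in whole cells and 6.10, 3.71 and 12.4 in EV, with overlap between the groups (p = 0.6 in the same exact permutation test).

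The family as a whole took 0.471%, 0.704% and 0.751% of the total count in the whole cell libraries, and 1.02%, 1.38% and 1.17% of it in the EV libraries. The mean went from 0.642% ± 0.150 (SD, n = 3) for whole cells to 1.19% ± 0.181 (SD, n = 3) for EV, with the smallest possible p of 0.1 (exact permutation test, two-sided). Without miR-151a-3p, a sum chosen after the values were seen, the remaining 6 arms took 0.282% ± 0.0632 (SD, n = 3) for whole cells and 0.245% ± 0.0263 (SD, n = 3) in EV, with overlap between them (p = 0.5, exact permutation test, two-sided). A share per library does not tell whether fewer vesicles carried a miRNA or each carried less of it.

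Within the family the miR-151 rows held 57.1%, 56.5% and 56.7% of the counts in whole cells and 79.0%, 81.2% and 77.9% in EV. This share was close to constant among the libraries of a group, with an SD of 0.325 percentage points in whole cells and 1.66 in EV (n = 3 each), while the means differed by 22.6 percentage points. The miR-28 arms held 33.1%, 37.2% and 38.0% in whole cells and 18.1%, 14.9% and 20.5% in EV. The miR-708 arms held 9.80%, 6.29% and 5.28% in whole cells and 2.95%, 3.95% and 1.62% in EV. None of these shares overlapped between the groups, and each gave the smallest possible p of 0.1 in a two-sided exact permutation test. The shares sum to the whole family, so a higher miR-151 share lowers the others, and they are not 3 separate results. As levels, miR-28-3p and miR-708-5p did not differ detectably (adjusted p = 0.777 and 0.596, edgeR). How often shares or ratios of other miRNAs overlapped between the groups was not computed.

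**Figure D3:**
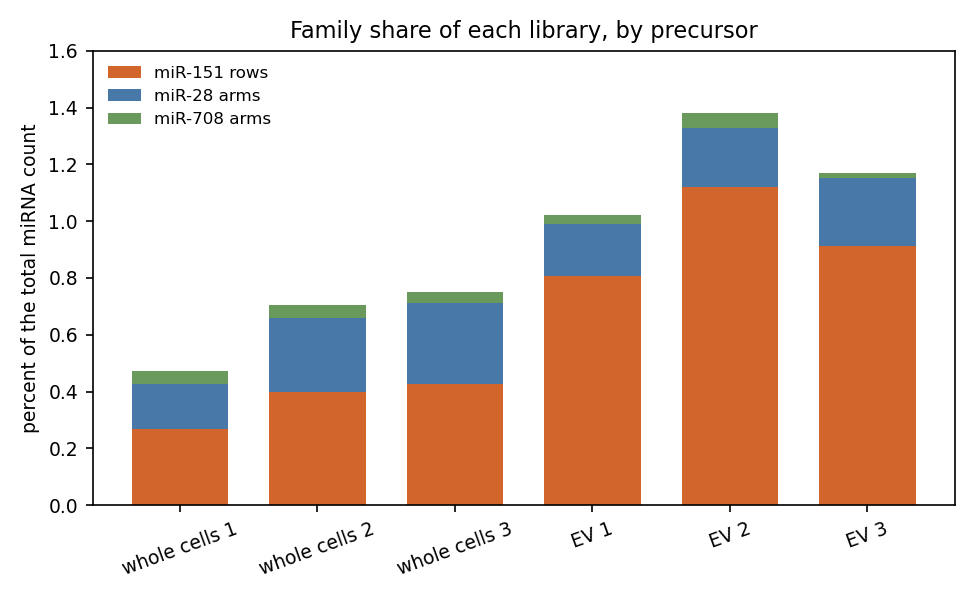
Percent of the total miRNA count taken by the miR-151 rows (orange), the miR-28 arms (blue) and the miR-708 arms (green) in each of the 6 libraries, stacked from 0. The full bars reach 0.471% to 0.751% in whole cells and 1.02% to 1.38% in EV, and the orange part makes up the difference between the groups.

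The 3 precursors differed in which arm had more counts. The 3p arm dominated for miR-151a and miR-28 and the 5p arm for miR-708, in every library. For miR-151a, 41.5, 195 and 409 counts of the 3p arm were found for each count of the 5p arm in whole cells. In EV the same ratio was at least 3292 in replicate 1, where the 5p arm had a count of 0 and was set to the limit of 3 counts, and it was 2198 in replicate 3. In EV replicate 2 a single 5p count stood against 22854 of the 3p arm, which is 0.00438% of the counts of both arms (exact Clopper-Pearson 95% interval 0.000111% to 0.0244%). The 5p arm made up 2.35% (interval 1.53% to 3.45%), 0.510% (0.406% to 0.634%) and 0.244% (0.130% to 0.417%) of both arms in whole cell replicates 1, 2 and 3. In EV replicate 1 it was 0% of 9876 counts (upper limit 0.0373%), and it was 0.0455% (0.0242% to 0.0777%) in EV replicate 3, so that no EV library reached the lowest whole cell library.

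Arm balance was tested as the log2 ratio of 3p to 5p counts, with 0.5 added to each, over all 245 miRNA names that had both arms and reached 5 CPM for their sum in at least 3 libraries. For miR-151a the mean log2 ratio was 7.19 ± 1.67 (SD, n = 3) for whole cells against 13.07 ± 1.76 (SD, n = 3) for EV. The 5p counts in EV were 0, 1 and 13, so in EV replicates 1 and 2 the size of the ratio depends on the 0.5 added. The difference was 5.88 (standard error 1.27, 95% interval 2.79 to 8.97, adjusted p = 0.0209 from limma with Benjamini-Hochberg adjustment over all pairs). With 1 added in place of 0.5 it was 5.42 (adjusted p = 0.0194, limma). With the miR-151b counts added to the 5p side it was 5.98 (adjusted p = 0.0209, limma). How reads that fit both miR-151a-5p and miR-151b were assigned is not known, so the 5p counts may be incomplete. A two-sided exact permutation test gave p = 0.1 for this pair, and 0.3 after adjustment over the 3 family pairs. limma called 25.7% of all 245 pairs, and 11.4% of the 245 toward the 3p arm in EV. Of the 3 family pairs only miR-151a was called, that of miR-708 resting on a 3p arm at 0 in 5 of 6 libraries. It was also the only one with an unadjusted p below 0.05 (33.5% of all pairs, limma) and the only one whose groups did not overlap (40.0% of all pairs, 19.6% toward the 3p arm in EV). Its difference was the 17th highest of the 245, whose median was 0.07 and whose range ran from -13.30 to 11.49. Without whole cell replicates 1, 2 or 3 or EV replicate 1 the adjusted p from limma was 0.0724, 0.0705, 0.0509 and 0.0550, while the difference stayed between 4.96 and 6.89 over all 6 fits without 1 library.

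For miR-28 the arm balance did not differ detectably. The 5p arm was 3.56%, 0.707% and 0.447% of both arms in whole cells and 0.310%, 1.502% and 1.81% in EV. The highest share was in whole cell replicate 1 and the lowest in EV replicate 1. The difference in log2 ratio was 0.13 (95% interval -2.66 to 2.92, limma, adjusted p = 0.942), and its sign turned without either of these 2 libraries. In whole cell replicate 1 the minor arms of both miR-28 and miR-151a were at their highest share of the 3 whole cell libraries, and this library also had the lowest total count.

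For miR-708 the 3p arm was seen only in whole cell replicate 2, as 7 counts against 1762 of the 5p arm, or 0.396% of both (exact 95% interval 0.159% to 0.814%). In the other libraries a count of 0 allowed a share of up to 1.64% in whole cell replicate 1, 0.604% in whole cell replicate 3, and 0.813%, 0.270% and 0.505% in EV replicates 1, 2 and 3. With 0 counts in 5 of 6 libraries, the log2 ratio of the arms was set by the 0.5 added and by the 5p count, so no difference in arm balance is given for miR-708.

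**Figure D4:**
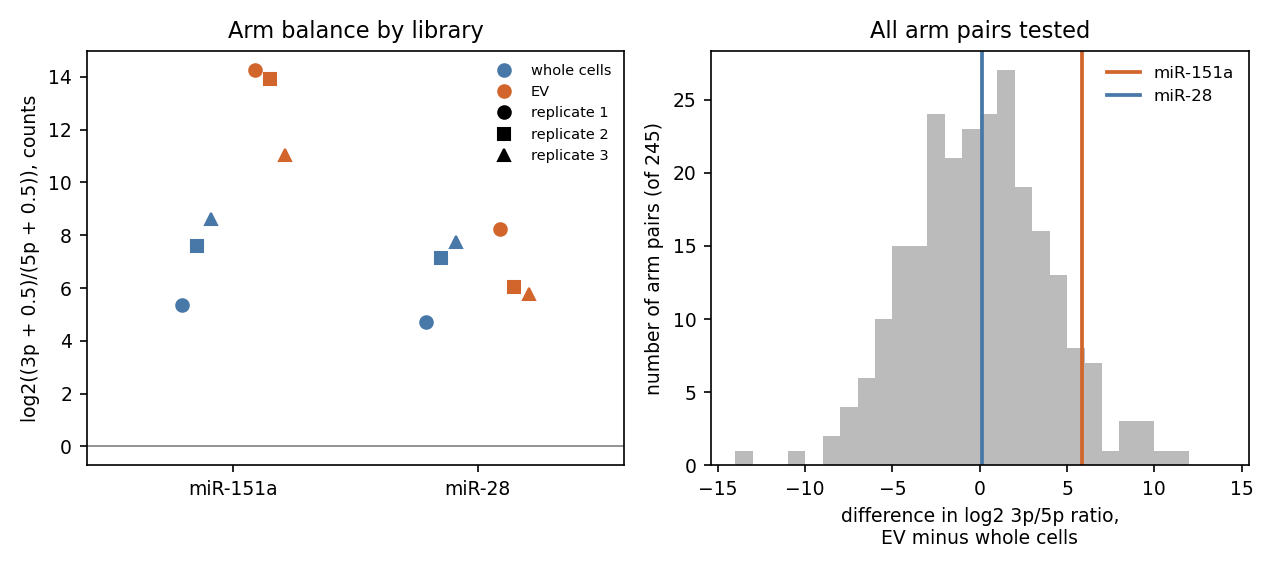
Left, the log2 ratio of 3p to 5p counts (0.5 added to each) for miR-151a and miR-28 in each library, with whole cells in blue and EV in orange. Right, the number of all 245 arm pairs by their difference in this ratio, EV minus whole cells, with lines for miR-151a at 5.88 and miR-28 at 0.13.

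The family arms did not follow one common pattern. The likeness of a pair was described by Pearson's r of log2(CPM + 4) over the 6 libraries, with CPM scaled by TMM factors, and no p is given. For the arms of miR-151a, whose groups did not overlap, r includes the difference between the groups, and for the other 3 tested arms it also follows the spread between libraries within a group. Between miR-151a-3p and miR-151a-5p it was -0.95, and between miR-28-3p and miR-28-5p it was -0.36. For miR-151a-3p and miR-28-3p it was 0.31, and for miR-28-3p and miR-708-5p it was -0.06. The miRNAs most like miR-151a-3p were miR-320c (r = 0.97), miR-532-5p (0.96) and miR-6087 (0.94). For miR-151a-5p they were miR-379-3p (0.97), miR-204-5p (0.96) and miR-381-5p (0.96). Their log2 fold changes were all negative, which follows from choosing them for likeness to an arm lower in EV. In EV miR-379-3p and miR-381-5p had a mean log2(CPM + 4) of 2, the value of a count of 0. Their r therefore rests partly on that floor. The nearest to miR-28-3p were miR-1307-3p, miR-92b-5p and miR-431-3p (r = 0.991 to 0.997), and the nearest to miR-28-5p were miR-496 (0.996), miR-15a-5p (0.97) and miR-26b-5p (0.94). miR-668-3p, miR-877-5p and miR-665 came nearest to miR-708-5p (0.96 to 0.98).

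Other miRNAs held to derive from LINE-2 elements were listed as miR-95-5p, miR-95-3p, miR-325 and miR-421. Only miR-421 reached the filter, with 68.2, 48.6 and 32.7 CPM in whole cells and 86.5, 229 and 174 CPM in EV. The lowest EV level was above the highest whole cell level, as for 20.9% of all tested miRNAs. edgeR put its log2 fold change at 1.72 with a standard error of 0.70 (adjusted p = 0.123), so 0 of 1 tested members passed, with an unadjusted p of 0.0422 by edgeR and an adjusted p of 0.0590 by DESeq2. The counts of miR-95-3p were 1, 8 and 4 for whole cells and 0 for each EV library, and miR-95-5p and miR-325 had a count of 0 in all libraries.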

How the data were processed

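Small RNA of MIO-M1 whole cells (n = 3) and of their EV (n = 3) was sequenced from QIAseq miRNA libraries. The deposited tables hold raw counts per mature miRNA, which the authors made with Cutadapt, an aligner and featureCounts. The headers name Bowtie 1, featureCounts 1.5.0-p1 and miRBase 20 positions, whereas the study's text names Bowtie2 and later releases of miRBase. The genome build is not given in the sources used here, so the tables' coordinates are not printed. Sequences came from RefSeq (GRCh38.p14) and host genes from GENCODE 29.

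Rows with at least 5 CPM in at least 3 libraries were tested with edgeR 4.0.16 (quasi-likelihood, TMM factors, Benjamini-Hochberg over all tested rows). DESeq2 1.42.0 was the main alternative, and limma 3.58.1 tested arm balance. Single shares and ratios were compared by exact permutation. The scripts were tested on simulated data that had less spread between libraries than these data. That run therefore does not show how often the tests err here. Groups came from the sample labels, and replicates were numbered in accession order. Nothing in the labels says that passages were separate cultures beyond their number, so p-values measure the spread between these samples. The members and lists were chosen with earlier results of these data known. Named genes were all 7 members, and for each tested member the 3 miRNAs with the highest Pearson correlation. A planned sum over rows sharing the seed of miR-28-5p was not analysed here. Other scaling factors, no filter, thinning to the smallest library, other pseudocounts and leaving out each library were also run.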

Additional observations from a re-analysis of the deposited data

How the results depend on the processing

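The number of family arms called in edgeR was 1. It was 2 with DESeq2, which added miR-151a-5p, and 0 without the filter on low counts, where 1188 miRNAs were tested. Leaving out 1 library gave 0 to 1, with 0 calls without whole cell replicate 2 or 3 or EV replicate 1 or 2, and without EV replicate 3 the call was miR-151a-5p (adjusted p = 0.0191, edgeR) and no longer miR-151a-3p (0.0804). The number of family arm pairs called in limma was 1, and 0 to 1 with 1 library left out. The cause was not tested in these cases, though each such fit has 1 sample fewer. Over all alternatives the log2 fold change of miR-151a-3p lay between 0.94 and 1.44, with an adjusted p from 0.00510 to 0.0922, and the adjusted p of miR-151a-5p from edgeR lay between 0.0191 and 0.252. With 1 library left out the log2 fold change of miR-28-5p ran from -0.73 to 0.50 and the arm balance of miR-28 from -0.77 to 0.74. The family share of the total, 0.548 percentage points higher in EV, was -0.0369 percentage points without miR-151a-3p.

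Over all miRNAs edgeR called 123 of 430, against 240 of 1188 without the filter, 122, 74 and 81 without whole cell replicates 1, 2 and 3, and 143, 132 and 132 without EV replicates 1, 2 and 3. Of the calls 51.2% were higher in EV, against 24.2% without the filter. The median log2 fold change over all miRNAs was -0.23 with TMM factors and -0.41 with RLE factors, and relative to it miR-151a-3p had a positive change under both. Whole cell replicate 1 was the shallowest library, and the rare arms rest on 0 to 136 counts a library. The labels give whole cells and EV no passage number in common, and no fit that pairs neighbouring passages was run.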
